A study of Arabidopsis thaliana with 12 samples.

Results

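AT2G25870 and AT2G39670 are nuclear genes of Arabidopsis thaliana, the first for an RNA-cleaving enzyme of the plastid and the other for an enzyme of a family that includes ribosomal RNA methyltransferases, and on the probes chosen for them both read lower in the mutant mak3 than in wild type (WT). They are 2 of the 691 genes that have a probe naming them alone, and each was read by 1 probe, chosen by its number in the table. AT2G25870 has another such probe, so the chosen one is called its first probe and the other its second, and the second did not read lower. Both genes were chosen because an earlier look at these same arrays had placed them among the genes with the smallest p values for a lower level in mak3. Their difference between mak3 and WT is therefore given as a description, with no test.

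The series holds 12 arrays of total RNA, 6 of WT and 6 of mak3, both of the ecotype Columbia 0. The labels call mak3 defective in a cytoplasmic N-acetyltransferase, an enzyme that puts an acetyl group on the start of proteins, and the transcript of the mutated gene itself was not analysed here. The labels name no allele, tissue, age or growth conditions, so no marker check of the tissue was made. Arrays numbered 1 and 2, 3 and 4, and 5 and 6 of a genotype read almost alike (r = 0.976 to 0.993 across probes, against 0.841 to 0.940 for other arrays of the same genotype). Each such array pair was therefore averaged and counted as 1 sample, which leaves 3 samples per genotype. The labels do not say whether the arrays of a pair are repeat readings. Whether the 3 samples came from separate plants is not stated in the labels either, so the spread between them may be technical.

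AT2G25870 encodes a protein of the YbeY type. YbeY proteins are endoribonucleases found in bacteria and in chloroplasts, where they take part in the maturation of ribosomal RNA, and in Arabidopsis the plastid enzyme is needed for normal plastid ribosomes and green leaves. AT2G39670 encodes a protein of the radical SAM superfamily, enzymes that use an iron-sulfur cluster to split S-adenosylmethionine into a radical. In Escherichia coli the member RlmN uses this chemistry to methylate an adenosine of the large ribosomal RNA, but neither the labels nor the files name the substrate or the location of the AT2G39670 protein. Plastids translate the core subunits of the photosystems on their own ribosomes, and the proteins that process the RNA of these ribosomes come from the nucleus.

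For AT2G25870 the deposited intensity of its first probe in the WT array pairs 1-2, 3-4 and 5-6 was 0.657, 0.727 and 0.721, each the mean of 2 arrays on the authors' linear scale. In mak3 it was 0.514, 0.452 and 0.413 in the same pairs. All 6 mak3 arrays lay below all 6 WT arrays, with 0.519 as the highest mak3 array and 0.641 as the lowest WT array. The arrays of a pair read almost alike and were counted as 1 sample. The share of all probes with such a separation of deposited arrays was not counted, and the choice of the gene as lower in mak3 favours it. Nothing is therefore read from this separation. The medians of the arrays moved too: they lay between 0.559 and 0.605 in WT, at 0.598 and 0.599 in mak3 pair 1-2, at 0.490 and 0.492 in mak3 pair 3-4, and at 0.420 and 0.421 in mak3 pair 5-6. On the log2 scale the deposited mak3 to WT ratio of the gene was -0.35, -0.69 and -0.80 in the 3 pairs. That of the median probe was 0.03, -0.19 and -0.52. The median probe was thus lower in mak3 too in the pairs where the gene had its widest gap. In pair 5-6 the mean intensity moved less than the median, from 1.05 on both WT arrays to 0.975 on both mak3 arrays.

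Quantile normalization takes such shifts off by giving all arrays the same distribution of values. After it, the level of AT2G25870 on the log2 scale was -0.71, -0.50 and -0.62 in WT pairs 1-2, 3-4 and 5-6, and -1.07, -1.01 and -0.91 in mak3. The WT mean was -0.61 ± 0.11 and the mak3 mean -1.0 ± 0.08 (SD, n = 3 each). The mak3 minus WT difference was -0.39 ± 0.09 (moderated SE of limma, n = 3 against 3), a level in mak3 of 0.764 times that in WT. By pair it was -0.36, -0.51 and -0.29, with an SD of 0.11 over the 3 pairs. The samples of the genotypes did not overlap, and all 3 mak3 samples below all 3 WT samples was found for 4.07% of all probes. The lowest WT sample (-0.71) and the highest mak3 sample (-0.91) were closer to each other than the lowest and highest WT samples (-0.71 and -0.50).

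For AT2G39670 the deposited intensity of its probe in the WT pairs 1-2, 3-4 and 5-6 was 0.582, 0.657 and 0.656. In mak3 it was 0.481, 0.400 and 0.287. Here too every mak3 array, at most 0.486, was below every WT array, at least 0.574, with the same limits as for AT2G25870. After quantile normalization the log2 level was -0.88, -0.65 and -0.76 in WT and -1.16, -1.21 and -1.44 in mak3. The WT mean was -0.76 ± 0.11 and the mak3 mean -1.27 ± 0.15 (SD, n = 3 each). The mak3 minus WT difference was -0.50 ± 0.11 (moderated SE of limma, n = 3 against 3), a level in mak3 of 0.705 times that in WT. By pair it was -0.28, -0.56 and -0.68, with an SD of 0.21, so the difference of this gene varied more between pairs than that of AT2G25870.

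**Figure D1:**
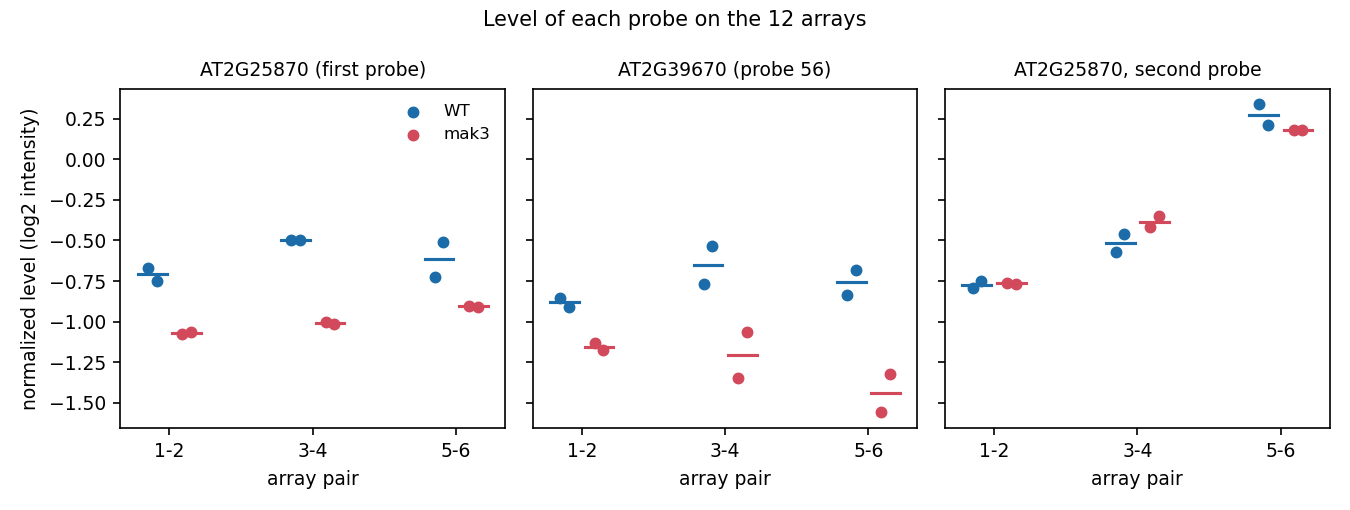
Normalized level (log2 intensity) on the vertical axis for each of the 12 arrays, by array pair, in WT (blue) and mak3 (red), with a bar at the mean of each pair of arrays. For the first probe of AT2G25870 and the probe of AT2G39670, both chosen as lower in mak3, the WT and mak3 points do not overlap. Of all probes, 4.07% had all 3 pair means of mak3 below all 3 of WT. The second probe of AT2G25870 has WT and mak3 side by side and its highest levels in pair 5-6.

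In limma with Benjamini-Hochberg adjustment, 0 of the 3439 probes were called at an adjusted p under 0.05, a share of 0%, and the members were not among any calls. Without adjustment, 135 probes had a p under 0.05. A lower value in mak3 in all 3 pairs, which both members show, was found for 20.2% of all probes. All 3 mak3 samples below all 3 WT samples, which both members show too, was found for 4.07% of all probes. Since the members were chosen on this contrast, nothing is read from their place in these shares.

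The members lay in the low part of the distribution in each pair, but not at its end. In pair 1-2, 12.7% of all probes had a lower difference than AT2G25870, in pair 3-4 6.60% and in pair 5-6 21.6%. For AT2G39670 these shares were 18.6%, 5.0% and 4.42%. Averaged over the pairs, AT2G25870 was 266th and AT2G39670 110th from the lowest of 3439 probes. Their moderated SE was 0.09 and 0.11, against a median of 0.25 over all probes. These SE depend on the probes in the fit. Without the dimmest 25% of probes they were 0.20 and 0.21 at the same differences. Both the difference and the SE enter the p by which the members were chosen.

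**Figure D2:**
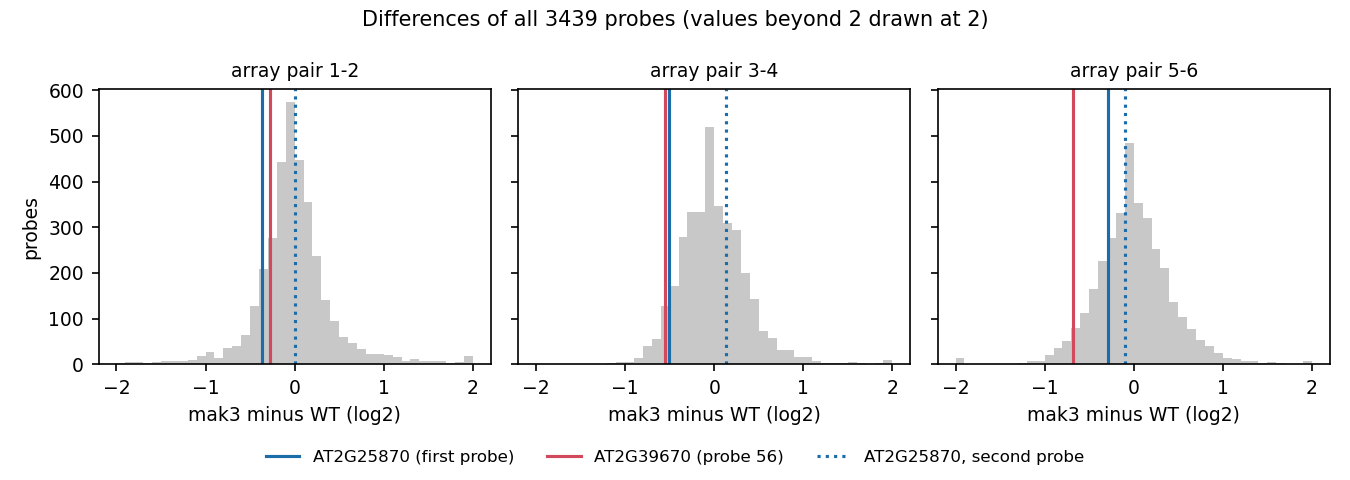
Number of probes (vertical axis) by mak3 minus WT difference on the log2 scale (horizontal axis) in each array pair, with lines at AT2G25870 (blue), AT2G39670 (red) and the second probe of AT2G25870 (dotted blue). The members lie on the low side in all 3 panels, from -0.28 to -0.68, inside the spread of all probes, and the second probe lies near 0.

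The rank of the intensity within an array needs no scaling between arrays. The rank also sets the level after quantile normalization, so it is no separate evidence beside the normalized levels. It is a place among spots that bind differently, not an order of transcript amounts. The first probe of AT2G25870 was brighter than 55.5% to 66.1% of all probes on the WT arrays and than 42.1% to 49.1% on the mak3 arrays. The probe of AT2G39670 was brighter than 48.8% to 64.4% on the WT arrays and than 26.1% to 42.6% on the mak3 arrays. Both genes thus read in the middle of the array in WT and lower in mak3, and neither was near the floor set for low values (0.0412 in intensity).

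The arrays of a pair differed in how close they were. For AT2G25870 the arrays of a pair were apart by 0.00 to 0.21 on the log2 scale, with a median of 0.01, and the widest gap was that of WT arrays 5 and 6. For AT2G39670 the gap was 0.05 to 0.28, with a median of 0.19, while the median probe had 0.10. The reading of AT2G39670 was thus less exact than that of the median probe. Its widest gap (0.284, mak3 arrays 3 and 4) was smaller than its mean difference of -0.50. Its difference in pair 1-2 (-0.275) was smaller in size than that gap.

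AT2G25870 has a second probe that names it alone, and it did not show the lower level. It is the only gene of the 691 with 2 probes that name it alone, and the gene table lists AT2G25860 as an older name of the same gene. Which part of the transcript either probe binds is not stated in the labels or files. The deposited intensity of the second probe in the WT pairs 1-2, 3-4 and 5-6 was 0.629, 0.715 and 1.28, and in mak3 it was 0.654, 0.698 and 0.974. After quantile normalization the log2 level was -0.77, -0.52 and 0.28 in WT and -0.76, -0.38 and 0.18 in mak3. The genotypes overlapped, and pair 5-6 was higher than the other pairs in both.

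The mak3 minus WT difference of the second probe was 0.02 ± 0.38 (moderated SE of limma, n = 3 against 3), and by pair 0.01, 0.13 and -0.09, with an SD of 0.11. The large SE holds the rise of pair 5-6 that both genotypes share, and a fit that takes array pair as a block gave an SE of 0.07. Without normalization its difference was -0.12, while that of the median probe was -0.19. Set side by side, the difference of the first probe minus that of the second was -0.37, -0.65 and -0.20 by pair, on average -0.41 ± 0.23 (SD, n = 3 pairs). Over the 6 samples the log2 levels of the probes of AT2G25870 had Pearson's r = 0.170 and Spearman's rho = 0.200, a description over samples that share their arrays. Of 641 probes that name 1 gene and are above the floor on all arrays, the second probe was the 254th in likeness to the first. The lower level of AT2G25870 in mak3 was therefore read by 1 of its probes and not by the other.

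The neighbours of a probe by number serve as a check for position, taking near numbers to lie near each other on the array. How alike probes with near numbers differed over the whole array was not measured here. AT2G25870 was lower than its nearest neighbours, which its choice as a low probe favours. Of the 8 probes within 6 numbers of its first probe, 4 were below 0 and 4 above, from -0.19 to 0.78, and 0 of them were as low as the member. Their medians over array pairs 1-2, 3-4 and 5-6 were 0.01, 0.11 and 0.12. With it taken off, AT2G25870 was at -0.38, -0.62 and -0.41 in the 3 pairs. The named genes among these neighbours were AT1G24310, a nucleoporin, at -0.19 ± 0.29 and AT2G19870 at -0.19 ± 0.10 (SE, n = 3 against 3). Of the 77 probes within 50 numbers, 38 were below 0 and 3 were lower than the member.

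AT2G39670 lay among neighbours that were low as well. All 8 probes within 6 numbers of its probe were below 0, from -0.54 to -0.07, and 2 of them were lower than the member. Their medians over array pairs 1-2, 3-4 and 5-6 were 0.04, -0.42 and -0.37, so they were low in the pairs where the member was lowest and not in pair 1-2. With it taken off, AT2G39670 was at -0.31, -0.13 and -0.31, on average -0.25. With the median of the probes within 50 numbers taken off the levels instead, AT2G39670 was at -0.17 ± 0.17, no larger than its SE. AT2G25870 was then at -0.41 ± 0.20. These SE come from a fit without array pair as a block. With the median difference of the same probes taken off by pair, AT2G39670 was at -0.29, -0.20 and -0.22. The mean was -0.24 ± 0.05 (SD, n = 3 pairs), and that of AT2G25870 was -0.37 ± 0.13. The choice of both as low probes favours values below 0. The named gene among the near neighbours was AT4G27510 at -0.28 ± 0.20 (SE, n = 3 against 3). The part of position in these differences was not tested.

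The probes within 6 numbers of the second probe of AT2G25870 had a median of 0.09, -0.10 and -0.29 in the 3 pairs. With it taken off, that probe was at -0.08, 0.23 and 0.19. An earlier look at these data had found that probes a fixed step of numbers apart differ alike. With the median of such probes taken off the levels, AT2G25870 was at -0.40 on its first probe and -0.16 on its second, and AT2G39670 at -0.34.

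**Figure D3:**
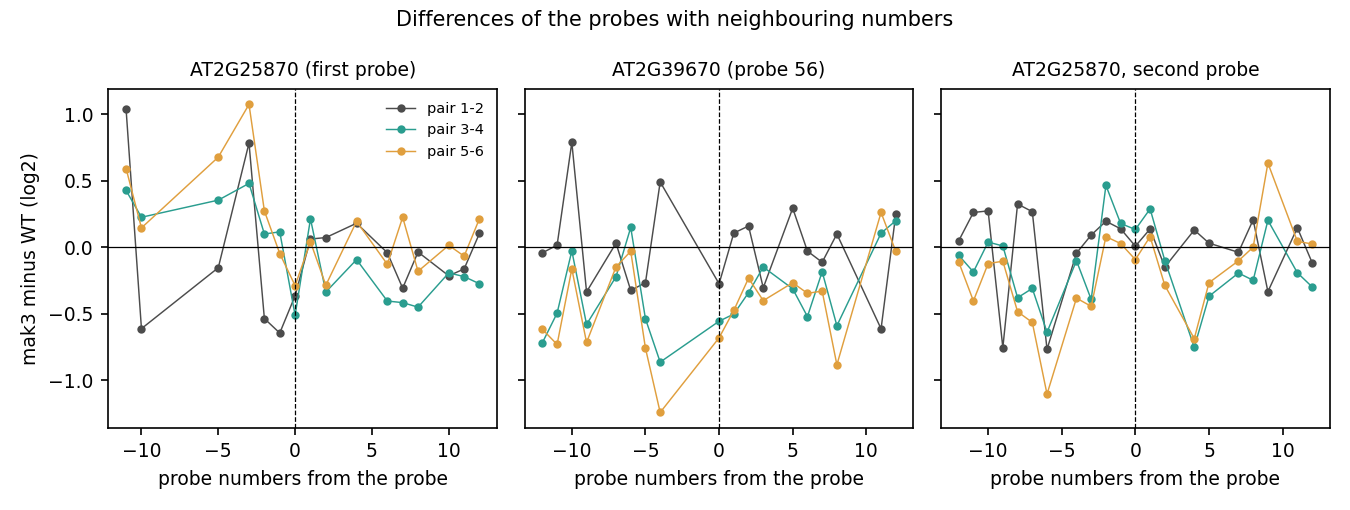
Difference of mak3 minus WT on the log2 scale (vertical axis) for the probes up to 12 numbers on either side of each probe (horizontal axis, 0 marks the probe itself), in array pairs 1-2 (grey), 3-4 (green) and 5-6 (yellow). Around the first probe of AT2G25870 the neighbours lie on both sides of 0, and around the probe of AT2G39670 those of pairs 3-4 and 5-6 are mostly below 0, with medians of -0.42 and -0.37 within 6 numbers.

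The members went together over the 6 samples, with Pearson's r = 0.848 and Spearman's rho = 0.771 between their log2 levels. Both were chosen as lower in mak3, which favours a high r, so it is a description of these samples. Within the 3 WT samples both were highest in pair 3-4, next in pair 5-6 and lowest in pair 1-2. Within the 3 mak3 samples they went opposite ways: AT2G25870 was highest in pair 5-6 at -0.91, where AT2G39670 was lowest at -1.44. The difference of AT2G25870 minus that of AT2G39670 was -0.09, 0.05 and 0.39 in pairs 1-2, 3-4 and 5-6, on average 0.12 ± 0.25 (SD, n = 3 pairs), so the pairs do not settle which gene differed more.

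The genes most like each member were taken by Pearson's r of the log2 level over the 6 samples, among 641 other probes that name 1 gene. For AT2G25870 these were AT3G26740 (CCL, a gene whose transcript follows the circadian clock), at r = 0.946 with a mak3 minus WT difference of -0.58 ± 0.18, AT2G26110 at r = 0.940 with -0.40 ± 0.08, and AT1G11730 at r = 0.873 with -0.33 ± 0.17 (SE, n = 3 against 3). CCL was at -0.44, -0.74 and -0.56 by pair, the same order of pairs as AT2G25870 only in that pair 3-4 was lowest. For AT2G39670 they were AT2G38500 at r = 0.967 with a difference of -0.61 ± 0.15, AT2G46190 at r = 0.945 with -0.39 ± 0.12, and AT4G35980 at r = 0.945 with -0.54 ± 0.20. AT2G38500 followed AT2G39670 in its order of pairs, with -0.44, -0.51 and -0.87. The other member came 8th for AT2G25870 and 16th for AT2G39670, so neither was the closest match of the other. The members were chosen as lower in mak3, so a high r over both genotypes favours genes that are lower too. The differences of the matches are therefore a description and no separate result.

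Other genes of plastid RNA maturation were few on the array under their own name. Of 11 genes for plastid RNA nucleases and their partners, AT2G25870 was the only 1 with a probe of its own. For this list 1 probe that names several genes was not used, so no other nuclease was set beside AT2G25870. For 25 other genes of plastid RNA maturation and binding, 1 probe that names several genes was not used either. Of these genes, 2 had a probe of their own, both above 0. Among these probes, 0 were called by limma and 0 had an unadjusted p under 0.05. CRR21 (AT5G55740), a pentatricopeptide repeat protein needed to edit the plastid ndhD transcript, had a difference of 0.33 ± 0.36 with 0.09, 0.38 and 0.52 by pair. AT1G70200, an RNA-binding protein of the chloroplast that takes part in ribosomal RNA processing, was at 0.06 ± 0.27 with 0.35, -0.13 and -0.06 by pair (SE, n = 3 against 3). Their median was 0.19, against 0.00 over all probes, and for neither was the difference larger than its SE.

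Of 12 radical SAM genes, 3 had a probe of their own, 1 higher and 2 lower in mak3 with a median of -0.11, and 0 were called by limma. AT2G39670 was the lowest of them and the only 1 with an unadjusted p under 0.05, for which it had been chosen. For this list 2 probes that name several genes were not used. THIC (AT2G29630), the plastid enzyme that makes the pyrimidine part of thiamin, was at -0.11 ± 0.21, with 0.36, -0.26 and -0.43 by pair. AT5G63290, of the oxygen-independent coproporphyrinogen oxidase type, was at 0.66 ± 0.36, with 1.19, 0.18 and 0.60 by pair (SE, n = 3 against 3).

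Both members were below 0 under each of the 26 alternatives, of which 12 leave out an array, 3 leave out an array pair and 11 change another setting. They were chosen as lower on these same arrays, so this is no separate evidence of their direction. The size for AT2G39670 depended on how neighbours were treated. AT2G25870 went from -0.61 to -0.33 and AT2G39670 from -0.73 to -0.17, and the lowest value of each was found without normalization, with the median probe at -0.19. The second probe of AT2G25870 went from -0.16 to 0.13 and was below 0 under 5 of the 26.

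**Figure D4:**
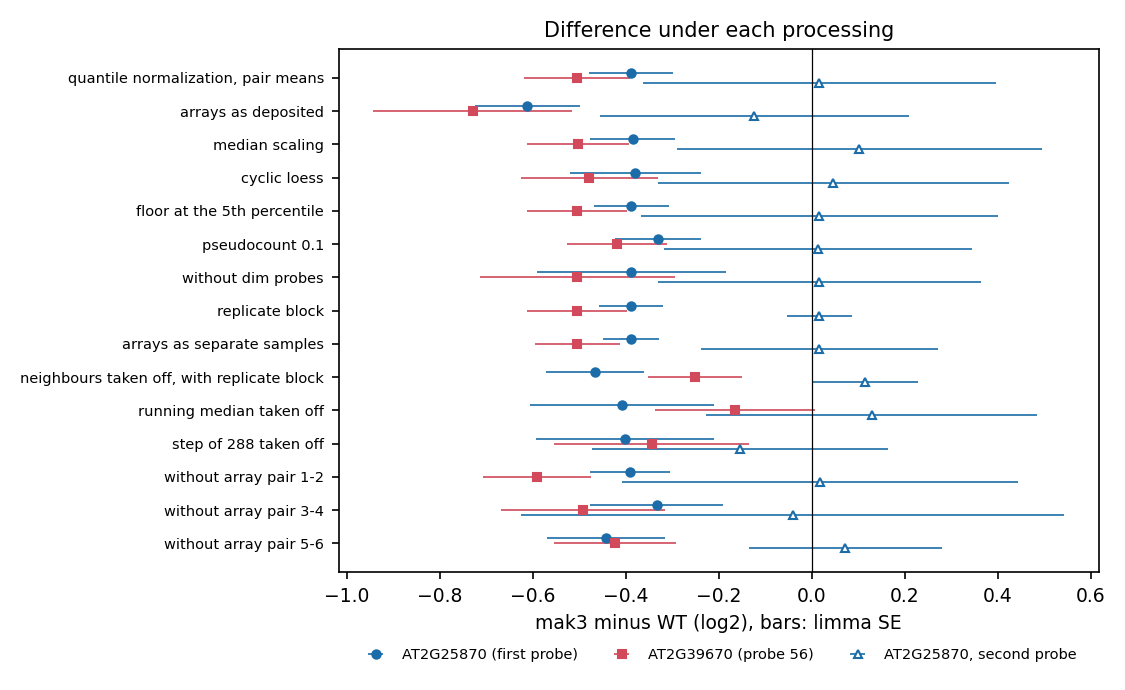
Difference of mak3 minus WT on the log2 scale (horizontal axis) for the 3 probes under the processing used and its alternatives, without those that leave out 1 array (bars, moderated SE of limma). The first probe of AT2G25870 stays between -0.61 and -0.33, AT2G39670 moves towards 0 when neighbouring probes are taken off, and the second probe of AT2G25870 lies on both sides of 0.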

How the data were processed

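The deposited table holds 1 intensity for each of 12 arrays and 3439 probes. The scanning, background correction and scaling behind these deposited intensities are given neither by the labels nor by the file, so their scale, centre and unit remain unknown, and the number of arrays limits the precision. Genotype and array number come from the labels. Probes were named with the platform's annotation, brought up to date through Entrez identifiers: 692 probes name 1 gene, 870 several and 1877 are unnamed here. The files name no genome build, so no coordinates are given.

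Quantile normalization used limma 3.58.1 (R 4.3.3), values under the 1st percentile of positive values were raised to it, log2 was taken and array pairs were averaged. All probes were fitted with lmFit and eBayes (two-sided, Benjamini-Hochberg), which was tested on simulated data. Same-numbered WT and mak3 samples had correlated deviations from the means of their genotype (r = 0.602, 0.557 and 0.739 over all probes). By this check of the data, and not by the labels, the numbers pair the samples. The block changed no call.

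The members, the lists and the likeness rule were chosen with earlier results of these data known. The named genes are the members, the 3 genes most like each, the named neighbours within 6 numbers of a member and the list genes. The second probe of AT2G25870 was added after its annotation was seen. A planned list of haloacid dehalogenase-like genes, and the part of the radical SAM list chosen by description, were not analysed here. No sequence was at hand to print.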

Additional observations from a re-analysis of the deposited data

How the results depend on the processing

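With limma, 0 probes were called under 25 of 26 alternatives. Treating all 12 arrays as samples, so that both arrays of a pair count as replicates, gave 24. With array pair as a block the count was again 0 (462 probes with an unadjusted p under 0.05, against 135 without it) and the differences were unchanged by construction, at -0.39 ± 0.07 for AT2G25870 and -0.50 ± 0.11 for AT2G39670. Without the dimmest 25% of probes, 0 were called and 65 had an unadjusted p under 0.05. The differences of the members were then the same, with an SE of 0.20 for AT2G25870 and 0.21 for AT2G39670. The arrays as deposited gave -0.61 for AT2G25870 and -0.73 for AT2G39670, with the median probe at -0.19. AT2G39670 was at -0.25 with neighbouring probes taken off and -0.17 ± 0.17 (SE) with the running median taken off the levels. With the median difference of the probes within 50 numbers taken off by pair, it was at -0.24 ± 0.05 (SD, n = 3 pairs). The part of position was not tested. Leaving out each array or each array pair kept 0 calls, with AT2G25870 from -0.44 to -0.33 and AT2G39670 from -0.59 to -0.42. No background signal was at hand, so whether a probe lay above it was not judged.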

Other observations

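Both members lie on chromosome 2, as does MAK3 (AT2G38130), the gene known for this mutant. Chromosome 2 holds 17.9% of the 692 probes that name 1 gene, the 3 probes of the members included. The differences by chromosome were looked at after the values were seen and are given with no test. The 124 probes of chromosome 2 had a median of -0.12 for the log2 difference of mak3 minus WT, with 62.1% of them lower in mak3, against 44.4% of the other 568 probes that name 1 gene. On chromosome 4 the median was -0.09 with 56.7% lower. On chromosomes 1, 3 and 5 it was 0.00, 0.06 and 0.05, with 47.1%, 36.9% and 37.1% lower. The median of chromosome 2 was 0.01 in array pair 1-2, -0.21 in pair 3-4 and -0.15 in pair 5-6. The neighbours of the AT2G39670 probe were low in pairs 3-4 and 5-6 as well, and the cause of either was not tested. In pairs 1-2, 3-4 and 5-6 chromosome 3 was at 0.00, 0.085 and 0.075. Chromosome 4 was at 0.00, -0.07 and -0.05, chromosome 5 at 0.00, 0.09 and 0.09, and chromosome 1 at -0.01, 0.00 and 0.00. With the running median along the probe numbers taken off, the median of chromosome 2 was -0.07, against -0.03, 0.04, -0.02 and 0.03 on chromosomes 1, 3, 4 and 5.

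Of 19 probes within 200 protein-coding genes of MAK3, 9 were lower in mak3, with a median of 0.00. They include AT2G39670, with 158 protein-coding genes between it and MAK3, and AT2G38500, the gene most like it, at -0.61, but also AT2G39100 at 0.84 and AT2G36480 at 0.48. AT2G25870 is farther off, with 1307 such genes between it and MAK3.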
